A study of Mus musculus with 24 samples.

Results

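The promoters of cancer-associated fibroblasts from mammary tumours (MMTV-CAF) were compared with those of wound-healing fibroblasts by means of trimethylation of histone H3 at lysine 4 (H3K4me3). Each cell type gave 1 WT library and 1 list of broad regions, so 2 of the 24 samples of the series were compared. The MMTV-CAF list held 27339 regions and the wound list 16961. Regions of the 2 lists that shared at least 1 bp were paired, and a gene was assigned a promoter region where a region lay within 1 kb of any of its transcription starts. Of 22359 protein-coding genes, 13222 had a promoter region in at least 1 list, and these genes are described by presence and by region width.

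MMTV-CAF came from the mammary tumours of MMTV-PyMT mice on the FVB/NJ strain, in which the promoter of a mammary tumour virus drives the polyoma middle T oncogene in mammary epithelium. Wound-healing fibroblasts came from C57BL/6 mice, from dorsal skin at day 10 after wounding. Both were primary cultures, immortalised by E6 and E7 of a papillomavirus and grown in the same serum-containing medium, and WT means an unaltered Prrx1 gene, here in cells that carried a control guide. The Prrx1-deleted counterparts of both types (SG) and WT mouse embryonic fibroblasts (MEF, C57BL/6) served as lists that took no part in the choice of genes. Tumour against wound, mammary gland against dorsal skin and FVB/NJ against C57BL/6 all coincide with the cell type, and these cannot be told apart. The number of animals behind each culture is not given in the sources used here.

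H3K4me3 marks the nucleosomes around the transcription starts of active or poised genes. Most promoters carry a narrow domain of it, whereas genes tied to the identity of a cell often carry domains that run far into the gene body. Promoters rich in CpG dinucleotides can hold the mark at low transcription, while CpG-poor promoters tend to hold it when they are active. Acetylation of histone H3 at lysine 27 (H3K27ac) marks active promoters and enhancers.

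The promoters marked in one type only differed in sequence. The 250 bases before the most upstream start are shown for 3 strong genes of each type, with every CpG in capitals, because the contrast in CpG content recurred over each whole set. They are the strongest unpaired promoters whose 250 bases lay entirely within their own region and overlapped no annotated exon, so Pygl and Tbc1d9 are not among them. The bases are those of the reference assembly NCBIM37, which is the mm9 build of the lists and derives from C57BL/6J; FVB/NJ bases were not read. In MMTV-CAF these were Plac8 at chr5:101001265-101001514 (minus strand), Ccdc65 at chr15:98538375-98538624 (plus strand) and Meox2 at chr12:37834877-37835126 (plus strand), read along the gene:
Plac8: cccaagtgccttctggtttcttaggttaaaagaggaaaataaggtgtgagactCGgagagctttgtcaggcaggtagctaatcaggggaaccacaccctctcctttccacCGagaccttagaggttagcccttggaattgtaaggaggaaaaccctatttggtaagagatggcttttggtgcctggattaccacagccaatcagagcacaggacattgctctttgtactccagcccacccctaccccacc
Ccdc65: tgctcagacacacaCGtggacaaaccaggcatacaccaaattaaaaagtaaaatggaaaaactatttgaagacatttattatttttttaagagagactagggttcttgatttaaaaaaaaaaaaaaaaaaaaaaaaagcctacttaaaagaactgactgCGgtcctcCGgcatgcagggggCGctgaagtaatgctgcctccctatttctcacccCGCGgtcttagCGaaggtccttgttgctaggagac
Meox2: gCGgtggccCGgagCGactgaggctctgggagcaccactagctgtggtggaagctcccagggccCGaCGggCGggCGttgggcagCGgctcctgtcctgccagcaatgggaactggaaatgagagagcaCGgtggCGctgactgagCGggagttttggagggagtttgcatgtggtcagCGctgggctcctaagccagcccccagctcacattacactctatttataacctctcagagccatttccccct
In wound-healing fibroblasts these were Ptprk at chr10:27794376-27794625 (plus strand), Gpr126 at chr10:14264843-14265092 (minus strand) and H2-K1 at chr17:34137279-34137528 (minus strand):
Ptprk: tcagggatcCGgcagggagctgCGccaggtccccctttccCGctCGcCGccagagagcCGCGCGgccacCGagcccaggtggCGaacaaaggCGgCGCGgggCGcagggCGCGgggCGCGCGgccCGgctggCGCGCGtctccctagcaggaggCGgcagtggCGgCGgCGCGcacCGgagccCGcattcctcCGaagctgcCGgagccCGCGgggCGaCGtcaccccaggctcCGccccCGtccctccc
Gpr126: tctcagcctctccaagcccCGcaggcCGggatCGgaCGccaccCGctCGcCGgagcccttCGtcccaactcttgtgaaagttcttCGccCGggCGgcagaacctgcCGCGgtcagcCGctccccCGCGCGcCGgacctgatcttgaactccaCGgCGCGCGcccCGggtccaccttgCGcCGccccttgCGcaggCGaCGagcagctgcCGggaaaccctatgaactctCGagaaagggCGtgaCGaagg
H2-K1: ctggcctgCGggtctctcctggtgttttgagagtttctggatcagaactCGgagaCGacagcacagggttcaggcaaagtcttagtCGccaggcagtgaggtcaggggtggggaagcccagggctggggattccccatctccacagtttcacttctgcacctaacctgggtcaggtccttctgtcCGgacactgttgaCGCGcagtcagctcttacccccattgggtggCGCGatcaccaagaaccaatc
The MMTV-CAF stretches held 2, 7 and 12 CpG dinucleotides, and the wound stretches held 38, 32 and 9. Over 500 bases to each side of the start, the ratio of observed to expected CpG was 0.26, 0.48 and 0.44 in the former and 0.84, 0.77 and 0.79 in the latter. H2-K1, with few CpG in its 250 bases, nevertheless had a CpG-rich start.

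The 2 lists differed in width before any gene was considered. Median region width was 1176 bp in MMTV-CAF against 1545 bp in wound-healing fibroblasts, but 3002 MMTV-CAF regions exceeded 4 kb against 949 wound regions. The authors' score for each region, column 8 of the list, is the −log10 p of enrichment over input, and it was used to rank and filter within a list, not to compare lists. Depth is unknown because the lists carry no read totals. With 1 library per group no difference between the types could be tested, and the Wilson 95% intervals given with shares cover counting error over regions or genes only.

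Most fibroblast markers were marked in both lists. Of 14 fibroblast markers, 11 had a promoter region in both types, among them Col1a1, Pdgfra, Vim and Twist2. Decorin (Dcn), a small matrix proteoglycan, had one in MMTV-CAF only, and Lum and Fap had none in either list. Ovol1 was the single epithelial marker of 10 with a region in MMTV-CAF (601 bp), and 5 of 10 had one in wound-healing fibroblasts, between 247 bp (Krt18) and 1224 bp (Ovol1), without an H3K27ac summit, and of these Cdh1 alone exceeded a −log10 p of 10, at 13.3. Of 6 blood markers Cd68 alone had a region, in MMTV-CAF (502 bp), and an H3K27ac summit lay at Csf1r in MMTV-CAF WT. Of 6 adipocyte markers Pparg, Cebpa and Lpl were shared and Fabp4 was MMTV-CAF-only (266 bp). Ptprc, Pecam1, Cdh5, Krt5, Krt14 and all 6 skeletal muscle markers were unmarked in both. Xist, the transcript of the inactive X chromosome, had a 6748 bp region in MMTV-CAF and none in wound-healing fibroblasts, while the Y chromosome held 0 regions in MMTV-CAF against 4 in wound-healing fibroblasts. Sex-linked differences therefore coincide with the cell type as well.

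The CpG contrast of the sequences shown was also seen over all genes. For every gene the CpG ratio and the motifs were read at the most upstream start. This was not always the start near the H3K4me3 region, so for some genes the sequence is not that of the marked promoter. The median observed to expected CpG ratio was 0.28 for the 388 genes marked in MMTV-CAF only, compared with 0.65 for the 1106 marked in wound-healing fibroblasts only. Shared promoters had a median of 0.74 and promoters without a region 0.20. A ratio above 0.6 was found at 7.22% of the MMTV-CAF-only promoters and at 60.7% of the wound-only promoters. In the SG lists, which did not enter the choice, the 445 MMTV-CAF-only promoters had a median of 0.29 and the 1104 wound-only promoters 0.65. Among genes whose own region reached a −log10 p of 10 and overlapped no region of the other list, the medians were 0.31 and 0.69. A set of 4 short motifs was also searched in the 250 bases on both strands, as letters only. TGACTCA, the AP-1 site, was present in 8.76% of the MMTV-CAF-only stretches, 2.98% of the wound-only stretches and 3.78% of all, but in the SG lists the type-only shares were close, at 4.72% and 4.17%. TATAAA, the TATA box, was present in 13.1%, 6.87% and 12.3%, GGAATG, the TEAD core, in 15.5%, 11.6% and 11.4%, and TAATTA, a homeodomain core, in 4.90%, 3.07% and 4.55%.

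Pairing of regions varied with their strength. In total 50.5% of MMTV-CAF regions (49.9 to 51.1) and 86.7% of wound regions (86.2 to 87.2) overlapped a region of the other list. Unpaired MMTV-CAF regions were numerous, short and mostly away from promoters: there were 13539, with a median width of 548 bp, a median −log10 p of 4.35 and 4.93% of them at a promoter. The 2248 unpaired wound regions had a median width of 583 bp, but 54.3% of them lay at a promoter. In the strongest quartile by column 8, 99.9% of MMTV-CAF and 99.7% of wound regions were paired, and in the weakest quartile 4.99% and 64.3%. Both lists kept to a −log10 p of at least 10 were paired at 84.8% and 93.8%.

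A promoter region in one type only was found at 388 genes in MMTV-CAF, which is 2.93% of the 13222 genes, and at 1106 genes, or 8.36%, in wound-healing fibroblasts. The remaining 11728 genes were shared. With both lists kept to a −log10 p of 10 or more, the balance turned, with 581 MMTV-CAF-only genes (4.95% of 11739) and 525 wound-only genes (4.47%). Of the 581, 466 had a weaker wound region, and of the 525, 262 had a weaker MMTV-CAF region, so 115 and 263 genes lacked a region of any strength in the other type. Around this limit lay Raet1c (9.92) and Spon2 (10.05) in MMTV-CAF and Dnahc11 (9.99) and Shroom3 (10.01) in wound-healing fibroblasts.

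Ranked by column 8, the strongest MMTV-CAF-only genes were Ndufb8, Prickle4, Hsf2bp, Nup160, Foxh1, Zfp498, Hrc, Msh4, Gdf15, Doc2g, Vpreb1 and Kdm6b, with values from 43.0 (Kdm6b) to 68.7 (Ndufb8). Ndufb8 stands for a second gene model of that name, since the main Ndufb8 model was shared. None of the 12 had a region of its own that was absent from the wound list. Their region overlapped the wound list, and it came within 1 kb of a start that the overlapping wound regions missed. At Kdm6b a start lay inside the MMTV-CAF region, which overlapped 3 wound regions (13135 against 9451 bp). At Foxh1, which encodes a transcription partner of SMAD proteins, the MMTV-CAF region was 2214 bp and the wound region 1621 bp, both at the neighbouring gene Ppp1r16a. At Hrc the pair measured 1706 and 1262 bp and lay at Trpm4. In all, 50 of the 388 MMTV-CAF-only genes and 11 of the 1106 wound-only genes were of this kind, and for 41 of the 50 the start itself lay outside the region. The genes described next are therefore those whose region overlapped nothing in the other list, 338 in MMTV-CAF against 1095 in wound-healing fibroblasts, a split that was made after the values were seen.

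Unpaired MMTV-CAF promoters were led by Pygl, Plac8, Ccdc65, Meox2, Ccl7, BC028528, Foxs1, Cd59a, Fam78b, Ptges, Lipo2 and Adh7. Meox2, a mesodermal homeobox gene on chromosome 12, had a region of 5410 bp in MMTV-CAF WT and 5290 bp in MMTV-CAF SG, and none in wound WT, wound SG or MEF. Plac8 measured 7535 bp in MMTV-CAF WT, 8004 bp in SG and 5377 bp in MEF, and was unmarked in both wound lists. Foxs1, a forkhead factor, measured 9635 bp in MMTV-CAF WT, 3396 bp in SG and 1163 bp in MEF, again with no region in either wound list. Ptges, which encodes the prostaglandin E synthase, measured 2986 bp in MMTV-CAF WT, 7587 bp in SG and 1666 bp in MEF. Pygl, the liver form of glycogen phosphorylase, had 3093 bp in MMTV-CAF WT and 2804 bp in SG, and 526 bp in wound SG. All 12 had a region in MMTV-CAF SG, 9 had none in wound SG, and each carried an H3K27ac summit within 1 kb of a start in MMTV-CAF WT and none in wound WT.

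**Figure D1:**
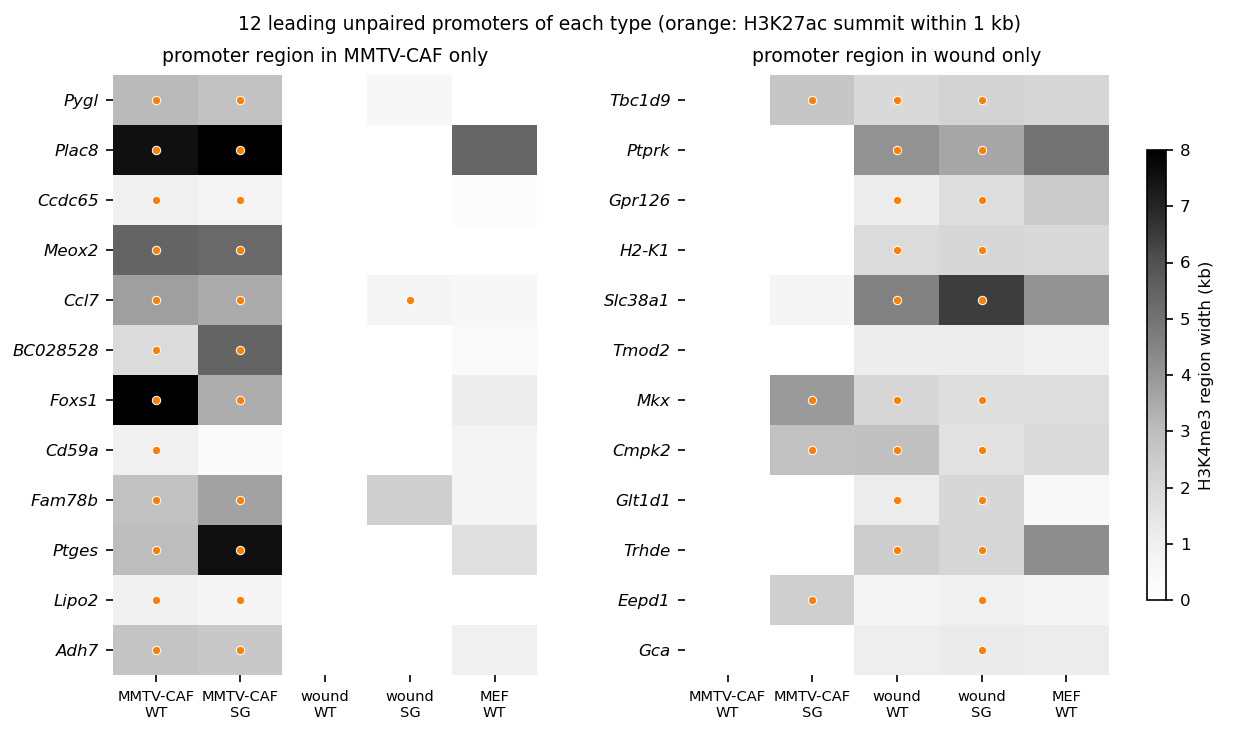
Width in kb of the widest H3K4me3 region at the promoter (grey scale, 1 column per list) for the 12 genes of each type with the highest column 8 among unpaired promoters, with widths above 8 kb drawn as 8 kb; orange dots mark an H3K27ac summit within 1 kb of a start, a mark not drawn for MEF. MMTV-CAF-only genes such as Meox2 are marked in both MMTV-CAF lists, and wound-only genes such as Ptprk in both wound lists and in MEF.

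Wound-only promoters were led by Tbc1d9, Ptprk, Gpr126, H2-K1, Slc38a1, Agrp, Hhex, Tmod2, Mkx, Cmpk2, Glt1d1 and Trhde, with a −log10 p from 23.4 (Trhde) to 34.8 (Tbc1d9). Those of Agrp and Hhex were of the overlapping kind. Ptprk, a receptor tyrosine phosphatase, had a region of 4113 bp in wound WT, 3591 bp in wound SG and 5004 bp in MEF, and none in either MMTV-CAF list. Gpr126, an adhesion receptor, measured 1176 bp, 1798 bp and 2496 bp in the same 3 lists and was likewise unmarked in both MMTV-CAF lists. H2-K1, a class I histocompatibility gene on chromosome 17, measured 1904 bp in wound WT, 2092 bp in wound SG and 1970 bp in MEF, and was absent from both FVB/NJ lists. It belongs to a multigene family that differs between mouse strains, and the part of strain in this value was not tested. Slc38a1, an amino acid transporter, had 4566 bp in wound WT and 679 bp in MMTV-CAF SG. Of the 12, 3 were wider in SG of MMTV-CAF than of wound-healing fibroblasts: Tbc1d9 (2683 against 2218 bp), the tendon factor Mkx (3888 against 1767 bp) and Cmpk2 (2817 against 1632 bp).

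The Prrx1-deleted libraries of the same lines carried most of these promoters. Of the 338 unpaired MMTV-CAF-only genes, 67.8% (62.6 to 72.5) had a promoter region in MMTV-CAF SG, against 27.5% (23.0 to 32.5) in wound SG. Of the 1095 wound-only genes, 83.1% (80.8 to 85.2) had one in wound SG, against 19.3% in MMTV-CAF SG. Among genes whose own region reached 10, shares in the own type were 97.1% of 69 genes and 98.8% of 256 genes. In the SG list of the other type these genes stood at 43.5% and 22.3%. Among shared promoters MMTV-CAF SG and wound SG reached 98.2% and 99.3%, and among promoters without a WT region 2.51% and 2.23%. MEF WT held 21.3% of the MMTV-CAF-only and 53.1% of the wound-only genes, and MEF share the C57BL/6 strain with the wound cells.

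The types also differed in how often these promoters carried H3K27ac. The H3K27ac lists themselves differed in size, with 53873 summits in MMTV-CAF WT and 33465 in wound WT. A summit within 1 kb of a start was found in MMTV-CAF WT at 51.2% (45.9 to 56.5) of the unpaired MMTV-CAF-only promoters, and in wound WT at 10.5% (8.82 to 12.5) of the wound-only promoters. In the other type's list these shares were 15.1% and 0.639%, so in the wound H3K27ac list the MMTV-CAF-only promoters stood no lower than the wound-only ones. Where the own region reached a −log10 p of 10, the order in wound WT was the opposite. There the shares were 11.6% of 69 MMTV-CAF-only and 35.9% of 256 wound-only promoters. In MMTV-CAF WT the same sets stood at 71.0% and 1.17%. Shared promoters stood at 90.1% in MMTV-CAF WT and 88.5% in wound WT. PRRX1, the homeodomain factor studied, had a summit at 7.69% of the MMTV-CAF-only promoters in MMTV-CAF WT and at 1.19% of the wound-only promoters in wound WT, against 13.5% and 11.0% of shared promoters. No wound-only promoter of the 1095 had a PRRX1 summit in MMTV-CAF. The PRRX1 lists held 8000 summits in MMTV-CAF WT and 5698 in wound WT.

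**Figure D2:**
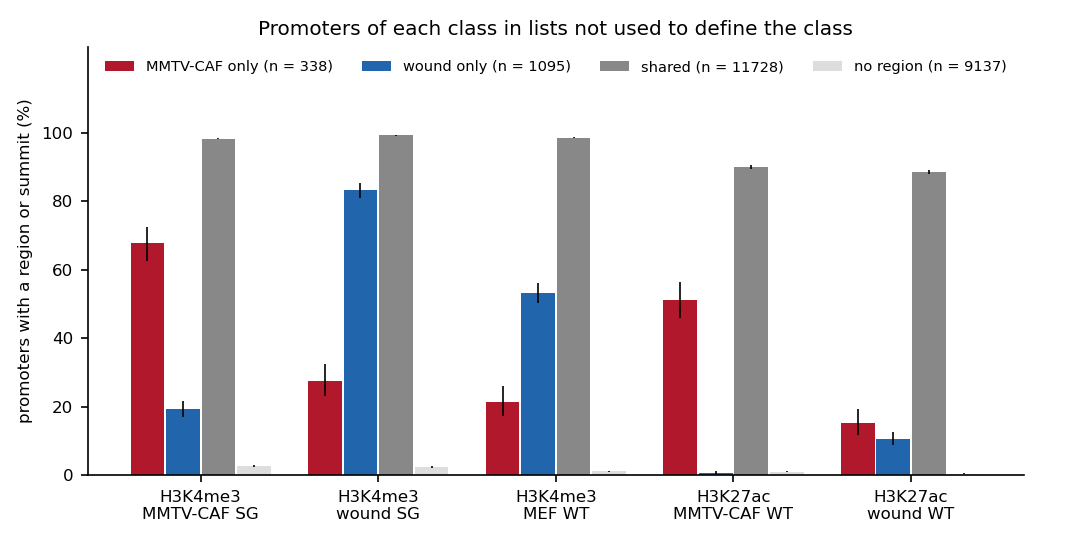
Share of promoters (percent, bars with Wilson 95% intervals) that hold an H3K4me3 region or an H3K27ac summit in 5 lists that did not define the classes. MMTV-CAF-only promoters stand at 67.8% in MMTV-CAF SG and 51.2% for H3K27ac, wound-only promoters at 83.1% in wound SG and 10.5% for H3K27ac.

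Among secreted signals, several chemokine promoters were marked in MMTV-CAF only or were wider there. Of 25 inflammatory cytokine and chemokine genes, 3 were MMTV-CAF-only, 1 was wound-only, 9 were shared and 12 had no region. Over all genes with a region 2.93% were MMTV-CAF-only and 8.36% wound-only, and at a −log10 p of 10 or more the list held 6 and 1, against 4.95% and 4.47% of all genes. Ccl2, a monocyte chemoattractant, had a region of 5283 bp in MMTV-CAF WT and 5122 bp in SG, none in wound WT and 2418 bp in wound SG. Its neighbour Ccl7 had 3767 and 3456 bp in the MMTV-CAF lists and 681 bp in wound SG. Ccl8, the third, had 489 bp. Of the shared members, 4 were at least 2-fold wider in MMTV-CAF: Il6 (3384 against 1505 bp), Cxcl1 (3278 against 1088 bp), Cxcl5 (3617 against 789 bp) and Csf1 (15703 against 5518 bp), where 11.4% of all shared promoters were. In SG the first 3 kept this order, while Csf1 measured 5746 against 5598 bp. Cxcl12, a chemokine of stromal cells, was wider in wound-healing fibroblasts (3279 against 1218 bp in WT, 2293 against 2165 bp in SG), and Tnfsf11, the ligand RANKL, was wound-only (745 bp).

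Hgf, the hepatocyte growth factor, was MMTV-CAF-only, with 4566 bp in WT and 6821 bp in SG against 667 bp in wound SG. Fgf1 was MMTV-CAF-only at 520 bp and Fgf5 wound-only at 1217 bp. Among 20 BMP ligands and antagonists, Bmp2, Bmp3, Bmp7, Gdf6, Nog and Chrdl1 were wound-only, 6 genes with widths from 237 bp (Chrdl1) to 2211 bp (Nog), against 8.36% of all genes with a region. At a −log10 p of 10 or more the list held 3 wound-only and 2 MMTV-CAF-only genes, against 4.47% and 4.95% of all genes. None of these 6 had a region in MMTV-CAF SG, and Bmp7 and Chrdl1 had none in wound SG either. Of 26 Wnt ligands and modulators, Wnt2b, Wnt4, Rspo3 and Rspo4 were wound-only and none was MMTV-CAF-only, against 8.36% and 2.93% of all genes with a region. But at a −log10 p of 10 or more 5 genes of the list fell in each class, against 4.47% and 4.95% of all genes. Of 19 matrix metalloproteinase and inhibitor genes, Mmp3 (1362 bp, and 383 bp in SG) and Mmp13 (246 bp, none in SG) were MMTV-CAF-only, against 2.93% of all genes with a region, and Mmp13 fell short of a −log10 p of 10. Mmp19 was wider in MMTV-CAF (3241 against 488 bp), while Mmp2, a gelatinase, had 1331 bp in wound WT and 227 bp in MMTV-CAF WT, both short of a −log10 p of 10, and 1868 and 1591 bp in SG.

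Of 25 regional and limb homeobox genes, 8 were wound-only and 1, Meox2, was MMTV-CAF-only, against 8.36% and 2.93% of all genes with a region. With both lists kept to a −log10 p of 10 or more the counts were close, at 3 wound-only and 2 MMTV-CAF-only, against 4.47% and 4.95% of all genes. Pitx1, a hindlimb factor, had 1378 bp in wound WT, 6046 bp in wound SG and 4003 bp in MEF and was unmarked in both MMTV-CAF lists. Alx4, a limb and skull factor, had 2129 and 6286 bp in the wound lists and 1399 bp in MMTV-CAF SG. Alx1 (636 bp), Dlx3 (865 bp), Dlx5 (448 bp) and Six2 (551 bp) had regions under 1 kb in wound WT. Shox2, a limb factor, was the shared member at least 2-fold wider in MMTV-CAF, with 7139 and 9256 bp against 3174 and 3988 bp in the wound lists. In the Pax, Sox, Fox and GATA list, Pax3, Sox6, Sox11, Foxl2 and Gata4 were wound-only and Foxs1 MMTV-CAF-only, of 24 genes, and at a −log10 p of 10 or more there was 1 of each kind. Sox11 was the widest of these in wound-healing fibroblasts, at 2665 bp.

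At the 11728 shared promoters the MMTV-CAF region was the wider in 89.5%. The median log2 ratio of widths, MMTV-CAF over wound, was 0.46 (95% interval of the median over genes 0.46 to 0.47), a ratio of 1.38. At least 2-fold wider regions were found at 1336 genes in MMTV-CAF, or 11.4%, and at 201 in wound-healing fibroblasts, or 1.71%. After division of the widths by the list-wide median ratio these counts were 403 and 395. In lists kept to a −log10 p of 10 or more these were 1092 (10.3% of 10633) and 36 (0.339%). In the SG lists the median log2 ratio was 0.20. Width exceeded 4 kb in MMTV-CAF alone at 2320 shared genes, in wound-healing fibroblasts alone at 43 and in both at 1036. Because this shift covers nearly all promoters, the ratio at any one gene is read against 0.46.

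The extra width lay mostly downstream of the start, as did the regions themselves in both types. Whether the downstream side widened more in proportion than the upstream side was not tested. In 7312 simple pairs, with 1 region per list over the start of 1 gene, the median MMTV-CAF region reached 744 bp upstream and 1945 bp downstream, and the median wound region 517 bp and 1412 bp. Where MMTV-CAF was at least 2-fold wider (549 pairs), the downstream reach was 2545 bp against 1106 bp and the upstream reach 744 bp against 325 bp. In 86.5% of these pairs the larger part of the difference lay downstream, against 71.9% of all pairs. Of 881 overlapping groups with at least 2-fold more covered bases in MMTV-CAF, 386 (43.8%) held more H3K27ac summits in MMTV-CAF than in wound-healing fibroblasts and 123 held fewer, against 26.7% and 21.4% of all 10237 groups. Of the 166 groups with at least 2-fold more covered bases in wound-healing fibroblasts, 0.602% held more in MMTV-CAF and 25.9% fewer.

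**Figure D3:**
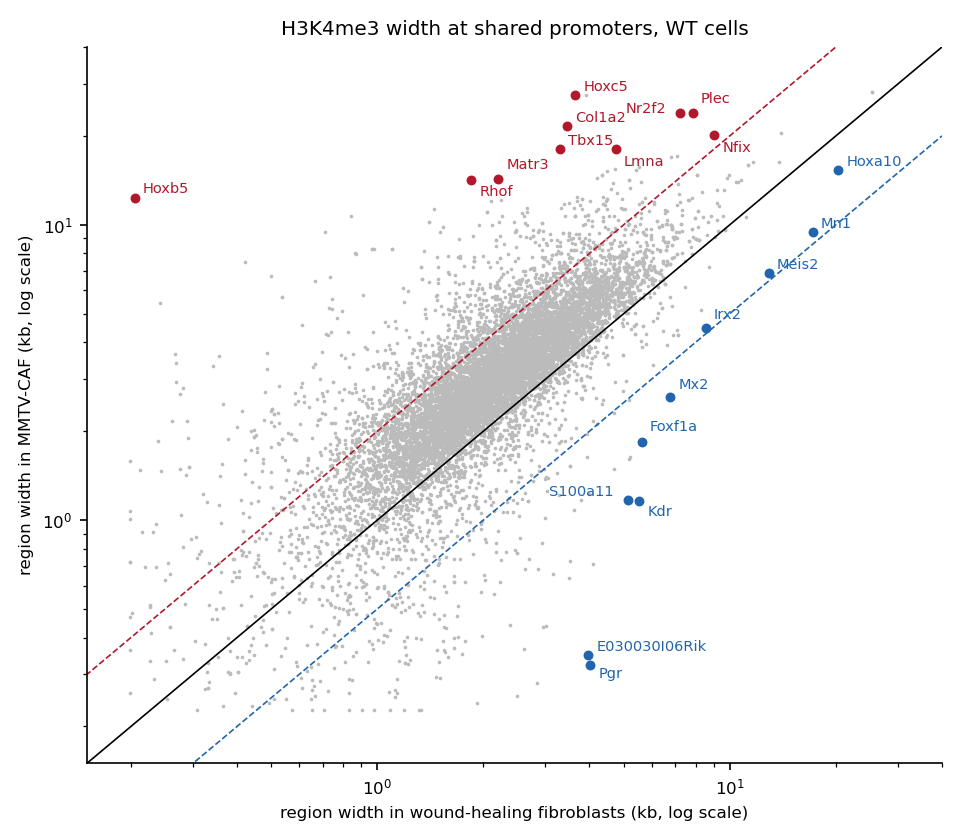
Width of the widest H3K4me3 region at each of 11728 shared promoters in wound-healing fibroblasts (x, kb, log scale) and MMTV-CAF (y, kb, log scale); the solid line marks equal width, the dashed lines a 2-fold difference, and the named genes have the 10 largest differences in each direction. Most points lie above the solid line, and the median log2 ratio is 0.46.

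The 10 largest differences in favour of MMTV-CAF were at Hoxc5, Col1a2, Nr2f2, Plec, Tbx15, Lmna, Rhof, Hoxb5, Matr3 and Nfix. Tbx15, a T-box factor of skeletal and dermal patterning on chromosome 3, was 1 region in each list, with 18013 bp in MMTV-CAF WT, 18193 bp in MMTV-CAF SG, 3299 bp in wound WT, 3190 bp in wound SG and 2560 bp in MEF. Both MMTV-CAF lists thus lay above the other 3, and the group held 5 H3K27ac summits in MMTV-CAF WT and 1 in wound WT. The summits did not follow width throughout, with 5 in MMTV-CAF and 10 in wound at Nr2f2, 3 and 11 at Plec and 3 and 12 at Lmna. Its relative Tbx18 measured 6390 and 7753 bp in the MMTV-CAF lists and 2179 and 2152 bp in the wound lists. Nr2f2, an orphan nuclear receptor, had 23877 and 23575 bp in the MMTV-CAF lists (WT, then SG) against 7218 and 7746 bp in the wound lists. Zeb2, a factor of mesenchymal transition, had 15390 and 15303 bp against 4735 and 5086 bp. Osr1, a mesenchymal zinc finger factor, had 7990 and 7839 bp against 870 and 1763 bp.

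Some of these differences came from how a domain was divided. At Hoxc5 a single MMTV-CAF region of 27443 bp stood against 5 wound regions that covered 22736 bp, of which the widest at this promoter was 3636 bp. The covered bases were also close at Rhof (14223 against 12598 bp), Hoxb5 (12357 against 10039 bp) and Nfix (21590 against 20149 bp). They were far apart at Tbx15, at Col1a2 (21610 against 6573 bp), at Nr2f2 (23877 against 9944 bp), at Matr3 (14254 against 6274 bp) and at Lmna (18017 against 9316 bp). Plec stood between, with 23890 against 16425 bp. One MMTV-CAF region spanned 2 or more wound regions in 884 of 13664 overlapping groups, and the opposite held in 117.

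**Figure D4:**
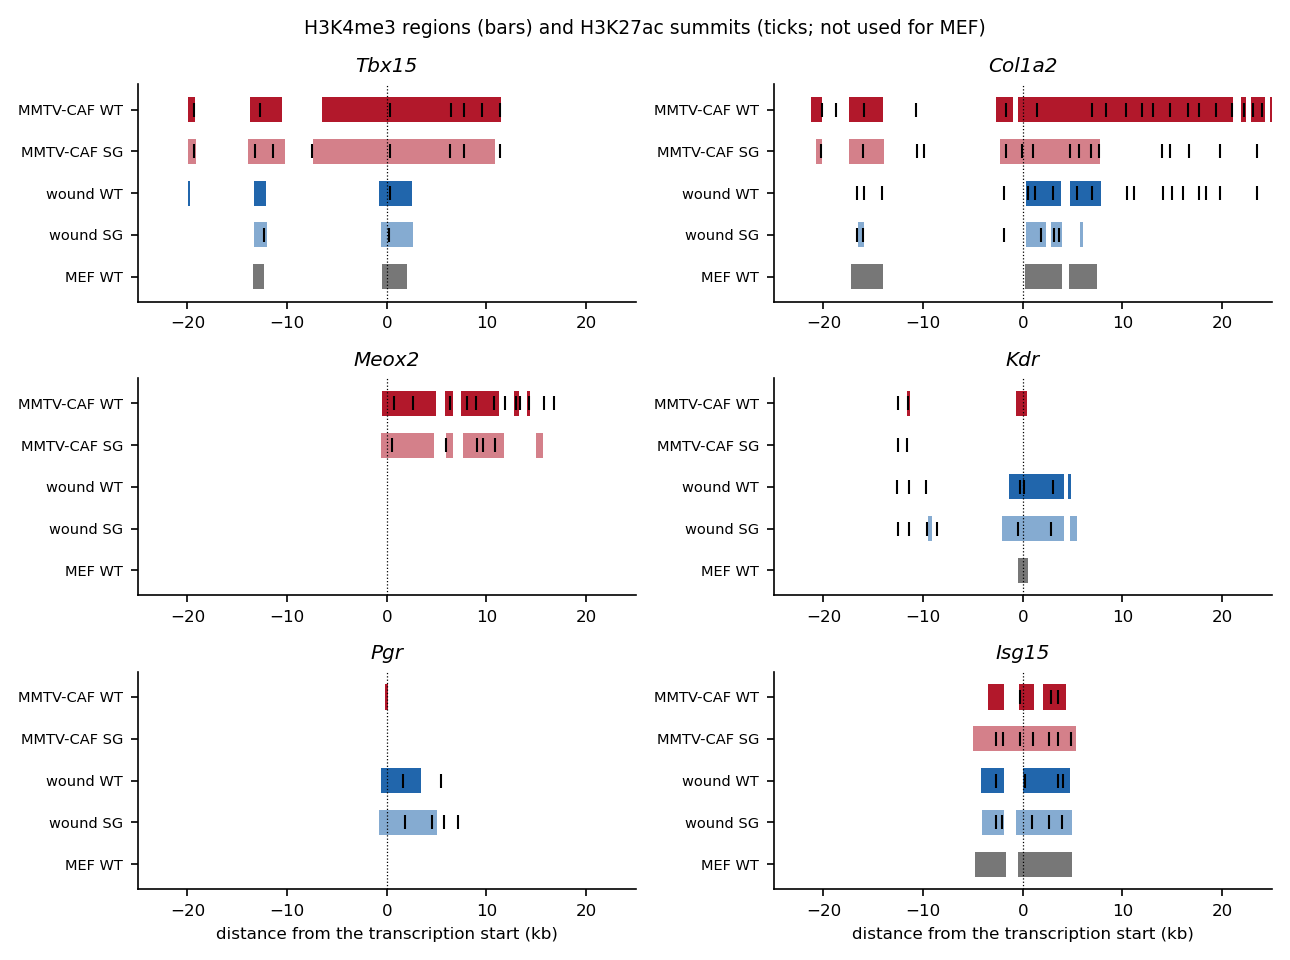
H3K4me3 regions (bars) and H3K27ac summits (ticks) within 25 kb of the most upstream start of 6 genes, oriented along the gene, with 1 row per list and the start at 0 kb. The Tbx15 and Col1a2 regions reach farther in the MMTV-CAF lists, Meox2 is marked there only, Kdr and Pgr are wide in the wound lists, and Isg15 is one wide region in MMTV-CAF SG.

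Collagen promoters stood above the general shift. Of 18 fibrillar collagen and cross-linking genes, 15 were shared, and 14 of these had a log2 ratio above the median of all shared promoters. The list median was 1.16, against 0.46 over all, and 9 of the 15 were at least 2-fold wider in MMTV-CAF, against 11.4% of all shared promoters. Col1a2, which encodes the second chain of type I collagen, had 21610 bp in MMTV-CAF WT, 10048 bp in SG, 3446 bp in wound WT, 1985 bp in wound SG and 3648 bp in MEF. Col3a1 had 7979 and 8563 bp in the MMTV-CAF lists and 2352 and 3319 bp in the wound lists. Col5a2 (9113 against 2643 bp in WT), Loxl1 (12039 against 4462 bp) and Plod2 (8578 against 2286 bp), genes of collagen assembly and cross-linking, showed the same order, while Col1a1 was closer (14732 against 9927 bp). In the SG lists the list median was 0.38, against 0.20 over all, and the order was opposite at Plod2 (4091 against 5876 bp), P4ha1 (5755 against 6350 bp) and Col2a1 (no region against 3307 bp). Col11a1, a cartilage collagen, was wound-only (2908 bp in WT and 3218 bp in SG), though its region overlapped an MMTV-CAF region of 508 bp away from the start. Housekeeping genes gave a median of 0.54, with 5 of 12 at least 2-fold wider in MMTV-CAF.

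Other matrix and growth factor genes included single cases of large difference. Postn, the matricellular protein periostin, had 6430 bp in MMTV-CAF WT and 666 bp in wound WT, and no region in either SG list. Ltbp2, a latent TGF-beta binding protein, had 10202 and 9936 bp in the MMTV-CAF lists and 1406 and 4082 bp in the wound lists. Fgf7 had 13982 and 16156 bp against 5614 and 5707 bp. Of the 21 matricellular genes 17 were shared with a median of 0.46, the same as over all promoters, and of 31 growth factors and receptors 25 were shared with a median of 0.54.

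Promoters wider in wound-healing fibroblasts were led by Mn1, Meis2, Hoxa10, Kdr, Mx2, Irx2, S100a11, Foxf1a, Pgr and E030030I06Rik. The MMTV-CAF domain was split at S100a11 (3832 covered bp against 5154 bp in wound WT), Irx2 (6433 against 8534 bp) and Hoxa10 (18149 against 20288 bp). With both lists kept to a −log10 p of 10 or more, Hoxd3 took the place of Pgr among these 10, and Klf3 and Zeb2 took those of Rhof and Hoxb5 among the 10 wider in MMTV-CAF. Mn1, a transcriptional coregulator, had 17197 bp in wound WT and 17801 bp in wound SG, against 9468 and 2775 bp in MMTV-CAF. Meis2, a HOX cofactor, had 12893 and 23081 bp in the wound lists, 6870 and 6814 bp in MMTV-CAF and 16496 bp in MEF. Kdr, the VEGF receptor better known from endothelium, had 5528 and 6173 bp in the wound lists, 1161 bp in MMTV-CAF WT, none in MMTV-CAF SG and 907 bp in MEF. The endothelial markers Pecam1, Cdh5, Tek and Tie1 were unmarked in both WT lists, and Erg had 552 bp in wound WT. Pgr, the progesterone receptor, had 4022 and 5792 bp in the wound lists against 323 bp in MMTV-CAF WT and none in its SG list.

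The HOX clusters, whose genes are used in combinations that differ along the body, were marked differently cluster by cluster. Over each cluster with 2 kb on each side, H3K4me3 covered 39.4% of HoxA in MMTV-CAF WT and 42.8% in wound WT, 25.6% and 23.9% of HoxB, 57.1% and 50.7% of HoxC, and 7.83% and 14.3% of HoxD. In SG the values were 42.3% and 52.8% for HoxA, 30.4% and 36.7% for HoxB, 61.3% and 55.5% for HoxC, and 8.15% and 14.7% for HoxD. HoxC thus stood higher in MMTV-CAF and HoxA and HoxD in wound-healing fibroblasts in both genotypes, while the order at HoxB differed between WT and SG. In HoxD, 4 of 9 genes (Hoxd1, Hoxd10, Hoxd11 and Hoxd13) were wound-only, against 8.36% of all genes with a region, but at a −log10 p of 10 or more Hoxd1 alone was, and the Hoxd10 region overlapped an MMTV-CAF region. Hoxd3 was wider in wound-healing fibroblasts (5216 against 1632 bp in WT, 5658 against 1654 bp in SG). In HoxC, 3 of 8 shared genes (Hoxc5, Hoxc6 and Hoxc8) were at least 2-fold wider in MMTV-CAF, all through the same region, against 11.4% of all shared promoters, and that region stood against 22736 covered bp in wound WT. Hoxc11 was MMTV-CAF-only at 368 bp. MEF covered 28.8% of HoxC and 45.3% of HoxA.

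Interferon-response promoters went against the general shift in WT cells. Of 18 interferon and innate sensing genes, 15 were shared, 2 were wound-only and none was MMTV-CAF-only, against 8.36% and 2.93% of all genes with a region. The median log2 ratio of the 15 was -0.35, against 0.46 over all, and 5 were at least 2-fold wider in wound-healing fibroblasts, against 1.71% of all shared promoters. With both lists kept to a −log10 p of 10 or more, Mx2 and Oasl2 alone of these 5 stayed shared, Isg15 was wound-only, and Ifit3 and Oasl1 had no region. Mx2, an antiviral GTPase, had 2610 bp in MMTV-CAF WT and 6767 bp in wound WT. Isg15, a ubiquitin-like modifier, had 1488 and 4703 bp, though its overlapping MMTV-CAF domain was split into 2 regions that covered 3791 bp against 4703 bp. In the same order, Ifit3 had 281 and 2844 bp, Oasl1 404 and 1988 bp and Oasl2 1379 and 2995 bp. Ifih1, the RNA sensor MDA5, was wound-only (3075 bp). In SG the order was the opposite, with 8982 bp at Mx2 and 10371 bp at Isg15 in MMTV-CAF SG against 5076 and 5536 bp in wound SG, and a list median of 0.68. Of 17 members with a region in either WT list, 12 were wider in wound WT, and 10 of these 12 were wider in MMTV-CAF SG than in wound SG. Within MMTV-CAF, 16 of the 17 were wider in SG than in WT, against 40.7% of the promoters with a region in all 4 lists, and within wound-healing fibroblasts 13 of 17, against 77.3%. Whether this goes with Prrx1 or with the single libraries cannot be told apart.

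**Figure D5:**
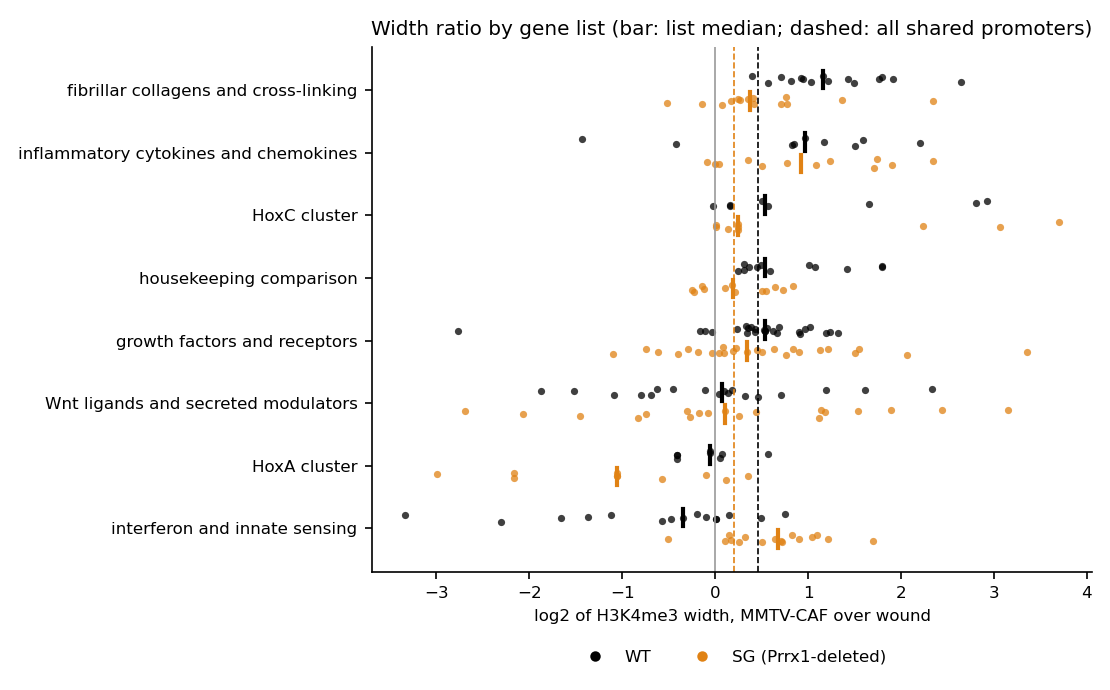
Log2 ratio of H3K4me3 width, MMTV-CAF over wound, for the members of 8 gene lists that were shared in WT (black) or in Prrx1-deleted cells (orange), with 1 point per gene and short bars at the list medians, with dashed lines at the median of all shared promoters. In WT the collagen list lies to the right of the dashed line (median 1.16) and the interferon list to the left (median -0.35), and in SG the interferon median is 0.68.

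The transcription factors proposed as fibroblast master regulators were all shared. Prrx1 itself was 13259 bp in MMTV-CAF WT and 4606 bp in wound WT, a log2 ratio of 1.53, and Nfix was 20121 and 9015 bp (1.16). The covered bases at Nfix were close, at 21590 against 20149 bp. The other 6 lay between 0.01 (Junb) and 0.70 (Klf13), with Tead1 at 0.52, Fosl2 at 0.50, Cebpb at 0.48 and Klf4 at 0.08. Of the 8, 6 were above the median of all shared promoters.

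Over all 11458 promoters with a region in the 4 WT and SG lists, the WT and SG log2 ratios had a Spearman rho of 0.31 and a Pearson r of 0.38 across genes, which are not independent replicates and share their cell lines. Of the 1294 that were at least 2-fold wider in MMTV-CAF WT, 85.9% were wider in MMTV-CAF SG than in wound SG, against 74.4% of all, and 23.2% by at least 2-fold, against 5.28%. Of the 131 that were at least 2-fold wider in wound WT, 61.8% were wider in wound SG, against 25.5% of all, and 22.1% by at least 2-fold, against 1.43%.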

How the data were processed

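ChIP-seq region lists of MMTV-CAF and wound-healing fibroblasts were used as deposited. For each library separately, the authors mapped Trimmomatic-trimmed reads with Bowtie (build mm9), discarded duplicates marked by Picard, and ran MACS2 with the sample's input as control, using a broad cutoff of 0.1 for H3K4me3 and a p-value of 1e-05 for summits. In the deposited H3K4me3 lists one column is a ratio (fold) to input, and others hold −log10 p and −log10 q. The deposited H3K27ac and PRRX1 lists give 1-bp summits with a −log10 p. Column 8 ranks and filters within a list and is not comparable between lists. Read totals are not part of the lists, so depth is unknown. Alignment to a C57BL/6J reference can lose reads of FVB/NJ cells at divergent loci, and broad calling can join or split a domain with signal strength.

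Groups came from the sample titles. Starts were taken from coding transcripts of GENCODE vM1 on NCBIM37. The widest region at a promoter in each list gave its width, and a fold of at least 2 was called wider. Named genes were the 12 type-only genes per type with the highest column 8, the 10 largest width differences per direction, 8 candidate master regulators, and members of 35 gene lists in one type only or at least 2-fold wider; Gm and Rik symbols were left out of the first set. The members and lists were chosen with earlier results of these data known. Pairing and width functions were tested on simulated lists. Sequence and CpG content were read at the most upstream start of 22354 genes. Tables were handled in pandas 2.3.3 and numpy 2.4.6 under Python 3.11.15, intervals came from scipy 1.17.1 and plots from matplotlib 3.10.9. Alternatives covered column 8, list size, promoter window, start choice, overlap and width definition. Some genes are not reported here.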

Additional observations from a re-analysis of the deposited data

Results flagged for a closer look

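Of the genes with the 10 largest width differences in each direction, the 12 leading wound-only genes and the 12 leading unpaired MMTV-CAF-only genes, 7 had a difference in width between the types that pointed the opposite way in Prrx1-deleted cells. With 1 library per group these differences between genotypes were not tested. Hoxb5 was wider in MMTV-CAF WT by 12152 bp (12357 against 205 bp), whereas in SG the difference, MMTV-CAF minus wound, was -25214 bp (822 against 26036 bp). The WT direction at Hoxb5 turned, to -301 bp, with regions under 1 kb apart joined, and the covered bases there were 12357 against 10039 bp. Matr3, a nuclear matrix protein gene, went from 12054 bp in WT to -317 bp in SG, where both regions were near 5 kb (4954 and 5271 bp). Mx2, of the interferon response, went from -4157 bp to 3906 bp, and Cmpk2, a mitochondrial nucleotide kinase gene, went from -2899 bp to 1185 bp. Foxf1a, a forkhead factor, went from -3773 bp (1845 against 5618 bp) to 2707 bp (7456 against 4749 bp). Tbc1d9 went from -1978 bp to 465 bp, and Mkx from -2109 bp to 2121 bp.

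Over all genes, 6 shared promoters were at least 2-fold wider in wound WT and at least 2-fold wider in MMTV-CAF SG, and 3 of them, Ifit3, Oas1a and Oasl1, belong to the interferon response. Reversal in the opposite sense was seen at 17 genes. Hoxb5 and Hoxb6 were among them, but with regions under 1 kb apart joined neither was wider in MMTV-CAF WT. Other genes given above, such as Zfp498, Vpreb1, Isg15, Oasl2, Plod2 and P4ha1, also had the opposite order in SG. These genes were chosen after their values were seen.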

How the results depend on the processing

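The count of MMTV-CAF-only genes (388) was 224 with lists of equal size and 115 where the own region had to reach a −log10 p of 10 with none of any strength in the other list; the wound-only count (1106) was 525 at a −log10 p of 10 in both lists and 263 under the second rule. MMTV-CAF-only minus wound-only genes (-718) was 56 at a −log10 p of 10, a reversal, -1138 at equal size, -474 with a window of 0 kb and -148 under that second rule. A window of 2.5 kb, the most upstream start alone and unpaired own regions (added after seeing the data) left these counts within 1.5 times. The paired share of MMTV-CAF regions (50.5%) was 84.8% at a −log10 p of 10 and 77.2% at equal size, and that of wound regions (86.7%) was 93.8% and 83.0%; an overlap of 50% of the shorter region left both within their intervals. Promoters at least 2-fold wider in MMTV-CAF (1336) numbered 403 after division by the list-wide median ratio, and those wider in wound (201) numbered 395 after it, 36 at a −log10 p of 10, 100 at equal size and 103 with a window of 0 kb. The median log2 ratio (0.46) was 0.47 at a −log10 p of 10, 0.45 with summed widths, 0.48 with regions under 1 kb apart joined and, by construction, 0.00 after division. Of 211 named genes, joining regions under 1 kb apart reversed Hoxb5 and Hoxb6 (-301 bp at both), and division by the median ratio reversed Junb (-1764 bp) and Klf4 (-1240 bp); no other named gene changed sign under the settings run. Where no cause follows from an alternative's construction, the cause was not tested. No paired analysis was possible because each group has 1 library. Strength, strain, tissue and type coincide, and depth is unknown.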

Other observations

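Imprinted genes and cell adhesion genes were not covered above. Of 19 imprinted genes found in the annotation, 12 were shared with a median log2 width ratio of 0.53, Meg3 (998 bp), Peg3 (2256 bp) and Plagl1 (948 bp) were wound-only, and Nnat (936 bp) was MMTV-CAF-only, against 8.36% and 2.93% of all genes with a region. None of these 4 regions reached a −log10 p of 10. Of 31 adhesion and guidance genes, 21 were shared with a median of 0.05, below the 0.46 of all shared promoters, and Cdh1, Epha7, Robo1 and Robo2 were wound-only, against 8.36% of all genes with a region, of which Robo1 and Robo2 fell short of a −log10 p of 10. None of those 4 had a region in MMTV-CAF SG and all had one in wound SG. By chromosome, wound-only genes made up 5.86% (chromosome 11) to 12.6% (chromosome 12) of the genes with a region outside the Y chromosome, and MMTV-CAF-only genes 1.43% (chromosome 4) to 4.90% (chromosome 7).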
